A study of Homo sapiens with 6 samples.

Results

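The genes of protein folding and degradation in the endoplasmic reticulum (ER) were examined in U87 cells exposed to rutaecarpine. They are 44 genes chosen by name from the 60671 genes of the expression table, and all 44 were found and tested. They comprise 6 sensors and transcription factors of the unfolded protein response, 7 genes of the ER HSP70 and HSP90 system, 3 other luminal stress proteins, 2 lectin chaperones, 4 disulfide isomerases, 3 prolyl isomerases and 13 genes of ER-associated degradation (ERAD). The other 6 are UFM1, 3 genes of the translocon and signal peptidase, and 2 of the COPII coat. U87 is a human glioblastoma cell line, and rutaecarpine is an alkaloid of Evodia rutaecarpa that activates the aryl hydrocarbon receptor (AhR). The rutaecarpine group (n = 3) was exposed for 48 h to 100 μM of the compound, dissolved in DMSO and diluted in medium without serum, and the control group (n = 3) received 0.1% DMSO for the same 48 h. RNA sequencing gave 1 value per gene and library, as TPM (a level scaled for transcript length and to 1 common total per library). The data cover 1 cell line, 1 dose and 1 time. Nothing in the labels says whether the 3 libraries of a group came from separate cultures, so the p-values measure the spread between these libraries, which may be technical.

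Secreted and membrane proteins fold in the ER, where HSPA5 (BiP) binds unfolded chains, J proteins and exchange factors drive its cycle, lectins hold glycoproteins, and isomerases form disulfide bonds and turn proline bonds. Chains that fail to fold are pulled back to the cytosol through the SEL1L and SYVN1 (HRD1) complex and degraded, which is ERAD. When unfolded chains accumulate, the sensors IRE1 (encoded by ERN1), PERK (EIF2AK3) and ATF6 are activated, and the factors XBP1, ATF6 and ATF4 raise the transcription of chaperone, ERAD and stress genes.

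The letters that the promoters share are shown first, because ATF6 and XBP1 are known to act through DNA elements of this form. In the first element, CCAAT is followed after 9 bases by CCACG, and in the second, ATTGG is followed after 1 base by CCACG. Both were searched on both strands of windows from 250 bases before to 50 bases after each RefSeq transcript start on GRCh38.p14. The 2 elements share the letters CCACG, and 39 of the 44 genes had a window. In the lines that follow, each sequence is read along the strand of its gene and the element is in capitals, so that an element on the other strand appears as its reverse complement.
HSPA5 chr9:125241369-125241431 (minus strand): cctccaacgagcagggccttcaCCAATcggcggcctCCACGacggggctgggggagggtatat
XBP1 chr22:28800598-28800626 (minus strand): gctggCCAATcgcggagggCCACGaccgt
CALR chr19:12938362-12938424 (plus strand): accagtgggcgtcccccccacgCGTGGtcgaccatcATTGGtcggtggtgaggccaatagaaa
PDIA6 chr2:10812848-10812876 (minus strand): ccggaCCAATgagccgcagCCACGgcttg
HERPUD1 chr16:56932016-56932044 (plus strand): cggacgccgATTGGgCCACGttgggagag
HYOU1 chr11:119057252-119057306 (minus strand): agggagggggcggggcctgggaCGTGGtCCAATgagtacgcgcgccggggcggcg
HYOU1 chr11:119057358-119057412 (minus strand): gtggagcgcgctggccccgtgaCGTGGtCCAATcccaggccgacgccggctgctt
SDF2L1 chr22:21642092-21642146 (plus strand): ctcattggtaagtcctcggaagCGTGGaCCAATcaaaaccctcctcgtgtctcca

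The element of HSPA5 began 66 bases upstream of the transcript start, that of XBP1 52, that of CALR 225, that of PDIA6 86, that of HERPUD1 117 and that of SDF2L1 188, and HYOU1 carried elements beginning 79 and 185 bases upstream. No annotated gene lay over these stretches except PDIA6, where the stretch fell within an intron of the longer gene model. The elements of CANX, CRELD2 and HSP90B1 lay within annotated genes and are not printed. Those of CANX and HSP90B1 lay in exons, while that of CRELD2 lay outside exons, as did that of PDIA6, which is printed. CANX, CRELD2 and HSP90B1 did not pass the test of expression given below, while all printed genes except PDIA6 did. The printed lines therefore do not represent all genes with an element. The first element was found in 7 of the 39 genes with a window (17.9%; CALR, CANX, CRELD2, HSP90B1, HSPA5, PDIA6 and XBP1). It was found in 0.0916% of the 27305 genes in the promoter table and in 0.155% of its 10353 tested genes. The second was found in 3 (7.69%; HERPUD1, HYOU1 and SDF2L1), against 0.0696% of all and 0.135% of those tested. CCACG alone was in the windows of 79.5% of the members, 42.1% of all genes and 56.9% of those tested. A further 8 letters, TGACGTGG, were found in DNAJC10 and HYOU1 (5.13%, against 0.927% of all genes and 1.21% of those tested). In HYOU1 these 8 letters overlap the second element, since they contain CCACG read on the other strand. The elements were chosen as known sites of factors that raise genes of this kind. Their higher share among the members is therefore a description and not a test. A match of letters is a description of the window and does not show that a factor was bound.

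The libraries were checked before the genes were compared. CYP1B1, a target of AhR, had 84.67, 82.42 and 42.80 TPM in the control group and 410.60, 335.45 and 422.88 TPM in the rutaecarpine group (log2 fold change 2.52, limma, adjusted p = 0.00191). The mesenchymal genes VIM and CD44 (415 to 837 TPM) were high in all libraries. Among the glial markers, GFAP was at 3.48 to 5.41 TPM, SOX2 at 0.06 TPM or less and S100B at 0.25 TPM or less. The members of this list went different ways. VIM was at 6974 to 7968 TPM in the control group and 4430 to 5164 TPM in the rutaecarpine group, and NES at 17.3 to 21.0 TPM and 12.3 to 13.6 TPM, both lower without overlap, while OLIG2 was at 1.48 to 1.73 TPM and 3.07 to 4.11 TPM, higher without overlap, and the groups overlapped for CD44. The summed level of the 7 mesenchymal and glial markers was 7413 to 8800 TPM in the control group and 5288 to 5830 TPM in the rutaecarpine group, most of it from VIM. The 3 immune markers summed to 452 to 511 TPM and 319 to 357 TPM, nearly all of it from CD68, which is also a lysosomal protein, with PTPRC at 0.03 TPM or less and CD3E at 0.07 TPM or less. The 3 neuronal markers summed to 22.5 to 32.5 TPM and 19.3 to 21.7 TPM, the 3 epithelial ones to 8.54 to 10.6 TPM and 8.42 to 12.8 TPM, and the 3 endothelial ones to 1.04 to 1.17 TPM and 1.20 to 2.20 TPM. The part of these differences in the results was not tested, and in a bulk sample fewer cells of a type and less RNA per cell cannot be told apart. Control replicate 3 stood apart: the median log2(TPM + 1) of the genes tested was 3.56 there and 3.81 to 4.00 in the other 5 libraries.

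After rutaecarpine, 14 of the 44 genes rose at an adjusted p of at most 0.05 (limma with Benjamini-Hochberg adjustment over the 14377 genes tested) and 0 fell. Of all genes tested, 4.6% were higher and 4.68% were lower at this threshold. The genes were counted as differentially expressed genes (DEGs) where the absolute log2 fold change was also above 1. By that count 8 of the 44 were up and 0 were down, while 2.01% of all genes were up and 1.5% were down. All 3 rutaecarpine libraries lay above all 3 control libraries for 33 of the 44 genes and below them for 2, against 19.3% and 14% of all genes. The median log2 fold change of the 44 genes was 0.50, and that of all genes tested was 0.08. The 8 DEGs were HSPA5, DNAJB9, HYOU1, DNAJC3, MANF, SDF2L1, HERPUD1 and ERN1.

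**Figure D1:**
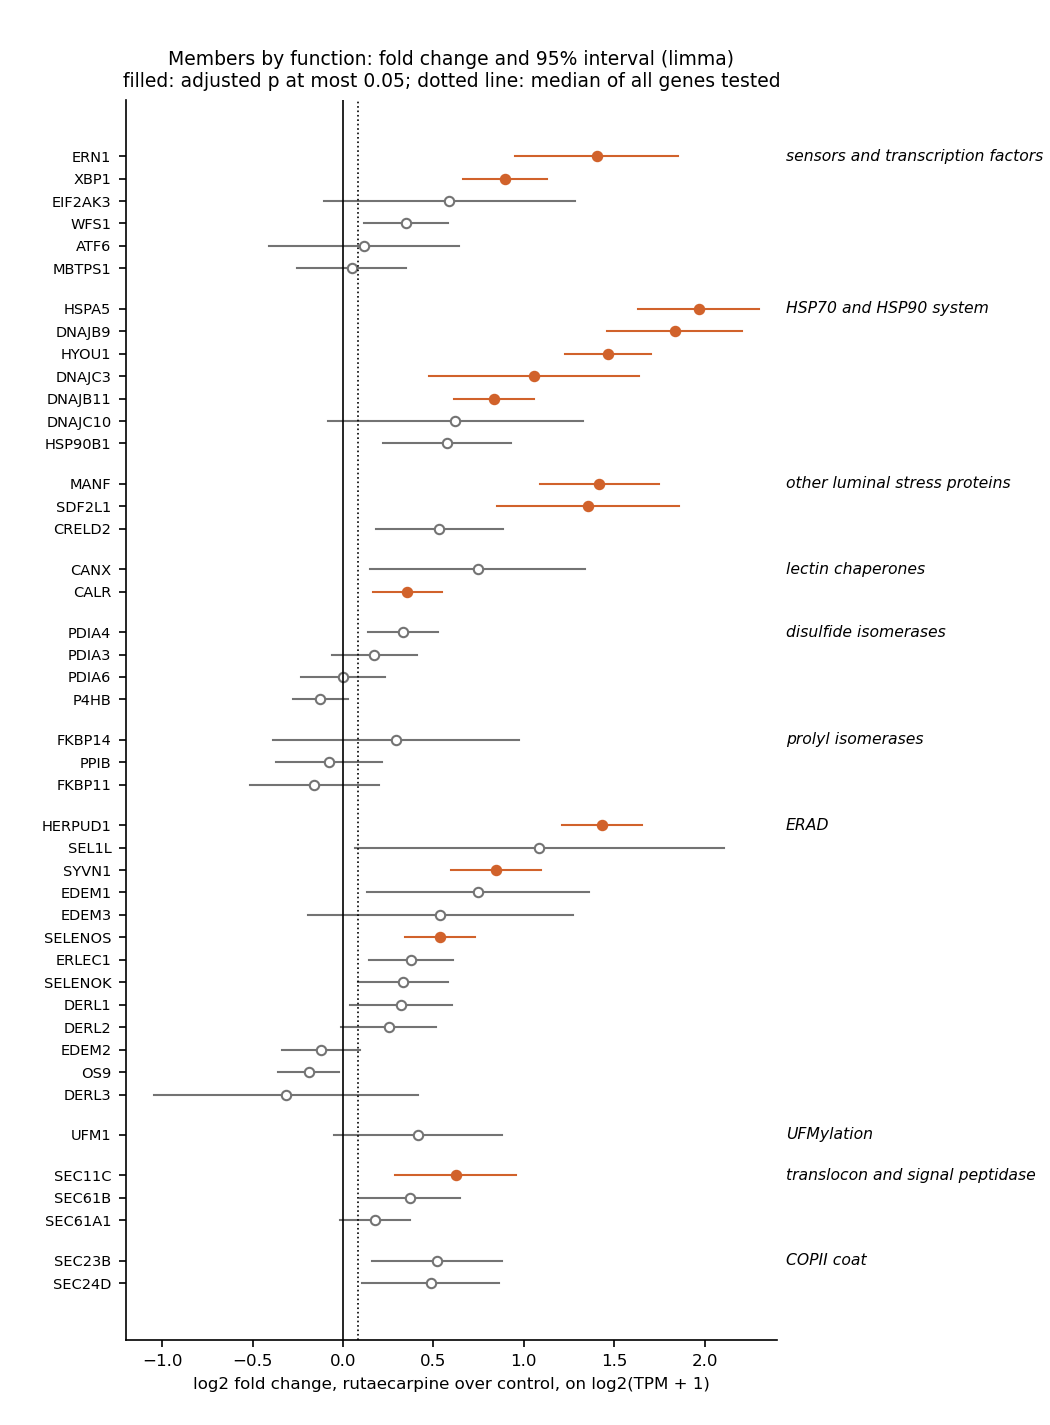
Log2 fold change (rutaecarpine over control, on the log2(TPM + 1) scale) with its 95% interval from limma for each of the 44 genes, ordered by function, with filled orange points for an adjusted p of at most 0.05 and open grey points otherwise. The 14 filled points all lie to the right of 0, the HSP70 and HSP90 system holds 5 of them, and the disulfide and prolyl isomerases hold 0 of 7.

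The HSP70 and HSP90 system held the 2 largest fold changes, HSPA5 and DNAJB9. In it 5 of 7 genes rose and all 7 had every rutaecarpine library above every control library, against 4.6% and 19.3% of all genes tested. HSPA5, the main HSP70 chaperone of the ER lumen, had 274.91, 291.34 and 229.88 TPM in the control group and 858.89, 1142.07 and 1131.72 TPM in the rutaecarpine group. Its lowest rutaecarpine library was thus well above its highest control library, and the mean level rose 3.93-fold (log2 fold change 1.97, 95% interval 1.63 to 2.30, limma, adjusted p = 0.00054). DNAJB9 (ERdj4), the J protein that recruits HSPA5 to IRE1 and to misfolded chains, had 16.57, 17.24 and 12.07 TPM in the control group and 50.68, 58.61 and 60.70 TPM in the rutaecarpine group. It rose 3.71-fold (log2 fold change 1.83, 95% interval 1.46 to 2.21, limma, adjusted p = 0.00106). HYOU1 (GRP170), a nucleotide exchange factor of HSPA5, had 38.20, 42.58 and 36.75 TPM against 107.15, 103.49 and 119.15 TPM. The groups were separated by a wide gap, with a log2 fold change of 1.47 (95% interval 1.23 to 1.70, limma, adjusted p = 0.000463).

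Of the other 3 J proteins, DNAJB11 and DNAJC3 rose and DNAJC10 did not pass. DNAJB11 (ERdj3), which holds substrates for HSPA5, was at 54.1 ± 3.17 TPM in the control group and 97.3 ± 6.92 TPM in the rutaecarpine group (SD, n = 3), a log2 fold change of 0.83 (limma, adjusted p = 0.00275). DNAJC3 (p58IPK), a J protein that also inhibits PERK, had 27.23, 26.78 and 14.33 TPM in the control group and 45.75, 42.06 and 52.58 TPM in the rutaecarpine group. Control replicate 3 was the lowest of its controls by a wide margin, and the log2 fold change was 1.06 (95% interval 0.48 to 1.64, limma, adjusted p = 0.042) with it and 0.77 (adjusted p = 0.00351) without it. Its adjusted p was above 0.05 in each of the other 5 fits that left out a library. DNAJC10 (ERdj5), a J protein that reduces disulfide bonds, had 72.07, 69.60 and 31.66 TPM against 81.60, 80.26 and 90.40 TPM, and HSP90B1 (GRP94), the HSP90 of the ER, had 645.05, 641.78 and 446.69 TPM against 794.78, 885.87 and 870.45 TPM. Neither passed the test (adjusted p = 0.258 and 0.061), and in both genes control replicate 3 was the lowest library. Without that library the log2 fold change of HSP90B1 was 0.40 (adjusted p = 0.00663, against 0.58 with it) and that of DNAJC10 was 0.24 (adjusted p = 0.0758, against 0.62 with it).

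**Figure D2:**
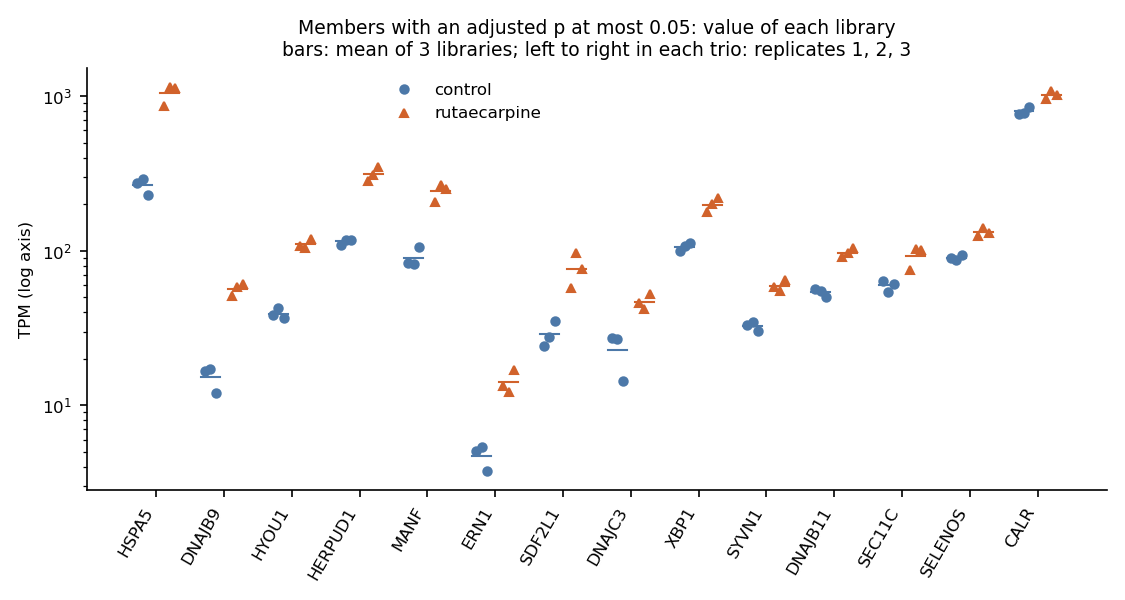
Level in each library of the 14 genes that passed the test (TPM, log axis), with blue circles for the 3 control libraries, orange triangles for the 3 rutaecarpine libraries and bars for the group means. In all 14 genes the lowest triangle lies above the highest circle, with the widest gap in HSPA5 (229.88 to 291.34 TPM against 858.89 to 1142.07 TPM).

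The other luminal stress proteins included 2 further DEGs. MANF, a secreted protein held in the ER that binds HSPA5, had 82.82, 81.58 and 105.83 TPM in the control group and 207.45, 267.67 and 250.79 TPM in the rutaecarpine group, a 2.69-fold rise (log2 fold change 1.42, 95% interval 1.09 to 1.75, limma, adjusted p = 0.00164). SDF2L1, which keeps HSPA5 and DNAJB11 with their substrates, had 24.07, 27.76 and 34.97 TPM against 57.16, 96.13 and 75.81 TPM, a 2.64-fold rise (log2 fold change 1.35, 95% interval 0.85 to 1.86, limma, adjusted p = 0.00979). In both genes control replicate 3 was the highest control, which is the opposite of its place in the HSP70 and HSP90 genes. Without rutaecarpine replicate 3, SDF2L1 had a log2 fold change of 1.34 and an adjusted p of 0.0537. CRELD2, a secreted ER stress protein with EGF-like domains, had 40.43, 42.34 and 45.31 TPM against 49.80, 71.93 and 66.98 TPM, and its log2 fold change of 0.53 did not pass the test (adjusted p = 0.0736).

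Of the sensors and transcription factors, ERN1 and XBP1 rose and the other 4 did not pass. ERN1, which encodes the kinase and RNase IRE1, had 5.09, 5.36 and 3.76 TPM in the control group and 13.35, 12.23 and 16.96 TPM in the rutaecarpine group, a 2.99-fold rise from a low level (log2 fold change 1.40, 95% interval 0.95 to 1.85, limma, adjusted p = 0.00577). XBP1, the transcription factor whose RNA is spliced by IRE1, had 99.23, 107.29 and 111.69 TPM against 178.61, 199.22 and 218.26 TPM (log2 fold change 0.90, 95% interval 0.66 to 1.13, limma, adjusted p = 0.00258). One value per gene does not separate spliced from unspliced XBP1 RNA.

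The genes of the other sensors had overlapping groups. EIF2AK3, which encodes the kinase PERK, had 21.12, 18.08 and 10.11 TPM in the control group and 20.23, 21.40 and 32.48 TPM in the rutaecarpine group (log2 fold change 0.59, 95% interval -0.11 to 1.28, adjusted p = 0.277), and 0.29 without control replicate 3 (adjusted p = 0.369). ATF6, a membrane-bound transcription factor released by proteolysis, had 16.67, 16.01 and 9.67 TPM against 15.86, 12.91 and 16.38 TPM (log2 fold change 0.12, 95% interval -0.41 to 0.64, adjusted p = 0.78), and its sign turned to -0.12 without control replicate 3. MBTPS1, the protease that makes the first of the cuts that release ATF6, had 45.1 to 58.2 TPM and 50.5 to 59.2 TPM in the groups (log2 fold change 0.05, 95% interval -0.25 to 0.35, adjusted p = 0.846). WFS1, a membrane protein of the ER that restrains ATF6, had 29.46 to 29.84 TPM in the control group and 35.09 to 39.71 TPM in the rutaecarpine group, without overlap, and did not pass (log2 fold change 0.35, adjusted p = 0.0748).

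Of the 9 lectin chaperones, disulfide isomerases and prolyl isomerases, 1 rose and 0 fell. CALR (calreticulin), the soluble lectin chaperone, had 766.29, 781.27 and 846.36 TPM against 961.98, 1086.25 and 1017.64 TPM, a 1.28-fold rise (log2 fold change 0.36, 95% interval 0.17 to 0.54, limma, adjusted p = 0.0372), and it was past the threshold in only 1 of the 6 fits that left out a library, the one without control replicate 3. CANX (calnexin), its membrane-bound counterpart, had 284.74, 278.52 and 146.62 TPM against 391.97, 339.70 and 414.29 TPM. Its log2 fold change was 0.75 with control replicate 3 (95% interval 0.15 to 1.34, adjusted p = 0.126) and 0.43 without it (adjusted p = 0.0159).

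None of the 4 disulfide isomerases passed the test in either direction. P4HB (PDI) had the highest level of the 44 genes, with 1397.49, 1405.22 and 1450.72 TPM in the control group and 1316.39, 1304.18 and 1280.72 TPM in the rutaecarpine group. Every rutaecarpine library was below every control library, with a log2 fold change of -0.12 (95% interval -0.28 to 0.03, adjusted p = 0.296). PDIA6, a disulfide isomerase that binds HSPA5 and IRE1, had 327.98, 324.50 and 269.53 TPM against 293.97, 324.38 and 301.57 TPM, and the 95% interval of its log2 fold change was -0.23 to 0.23. PDIA3 (ERp57), the partner of the lectin chaperones, had a log2 fold change of 0.17 (95% interval -0.06 to 0.41, adjusted p = 0.337), and PDIA4 (ERp72), a further isomerase of the same family, had 172.26 to 188.72 TPM against 213.43 to 239.60 TPM, without overlap (log2 fold change 0.33, adjusted p = 0.0523). The 3 peptidyl-prolyl isomerases had overlapping groups: PPIB (cyclophilin B) was at 973 ± 152 TPM and 918 ± 73.3 TPM (SD, n = 3), FKBP11 at 21.3 ± 2.71 TPM and 19.0 ± 2.52 TPM, and FKBP14 at 15.9 ± 5.66 TPM and 19.0 ± 3.80 TPM.

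ERAD was the largest set, and 3 of its 13 genes rose. HERPUD1 (HERP), which joins the HRD1 complex, had 109.47, 117.34 and 118.16 TPM in the control group and 284.44, 306.93 and 346.35 TPM in the rutaecarpine group, a 2.72-fold rise with the smallest adjusted p of the 44 genes (log2 fold change 1.43, 95% interval 1.21 to 1.65, limma, adjusted p = 0.000434). SYVN1 (HRD1), the ubiquitin ligase of the complex, had 32.88, 34.41 and 30.36 TPM against 58.09, 55.12 and 64.88 TPM (log2 fold change 0.85, limma, adjusted p = 0.00409). SELENOS, a selenoprotein that links the Derlins to the ATPase VCP, had 89.24, 87.43 and 94.35 TPM against 124.29, 139.34 and 130.90 TPM (log2 fold change 0.54, limma, adjusted p = 0.00875, and 0.0537 without rutaecarpine replicate 3). In all 3 genes the groups were apart, and control replicate 3 lay close to the mean of the other controls, at 0.06 from it in HERPUD1, -0.14 in SYVN1 and 0.09 in SELENOS on the log2(TPM + 1) scale.

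SEL1L, the adaptor that holds HRD1, had a larger difference of means than SYVN1 but a wide spread, with 52.53, 45.60 and 15.28 TPM in the control group and 68.68, 61.04 and 88.53 TPM in the rutaecarpine group. Its log2 fold change was 1.08 (95% interval 0.06 to 2.11, adjusted p = 0.183) and 0.55 without control replicate 3 (adjusted p = 0.0491). EDEM1, a mannosidase-like lectin that marks glycoproteins for ERAD, had 35.35, 38.92 and 18.67 TPM against 50.51, 46.47 and 54.05 TPM (log2 fold change 0.75, adjusted p = 0.135), and 0.43 without that library (adjusted p = 0.0212). Its paralogue EDEM3 (2.86 to 7.63 TPM against 7.64 to 8.93 TPM) had a gap of only 0.01 TPM between the groups and a log2 fold change of 0.54, or 0.17 without control replicate 3 (adjusted p = 0.344 and 0.434), and EDEM2 (58.57 to 67.35 TPM against 55.98 to 60.48 TPM) overlapped.

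The remaining ERAD genes did not pass in either direction. OS9, a lectin that delivers glycoproteins to SEL1L, had 280.34, 291.62 and 309.96 TPM in the control group and 262.30, 254.66 and 255.53 TPM in the rutaecarpine group. It was the only ERAD gene with every rutaecarpine library below every control (log2 fold change -0.19, 95% interval -0.36 to -0.02, adjusted p = 0.163). The related lectin ERLEC1 (XTP3-B) went the other way, with 59.1 ± 4.94 TPM in the control group and 76.9 ± 4.25 TPM in the rutaecarpine group (SD, n = 3) and an adjusted p of 0.0597. The selenoprotein SELENOK had 35.74 to 38.02 TPM against 42.14 to 51.41 TPM (log2 fold change 0.33, adjusted p = 0.11). Of the Derlins, membrane proteins of the channel that returns chains to the cytosol, DERL1 and DERL2 had log2 fold changes of 0.32 and 0.25 with no overlap of groups (adjusted p = 0.161 and 0.222), and DERL3 had the lowest level of the 44 genes, at 1.41, 1.81 and 4.04 TPM against 1.23, 1.49 and 2.20 TPM.

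At the entry and exit of the ER, 1 of 6 genes rose. SEC11C, a catalytic subunit of the signal peptidase, had 63.84, 53.93 and 61.06 TPM in the control group and 75.20, 102.41 and 101.36 TPM in the rutaecarpine group (log2 fold change 0.62, 95% interval 0.29 to 0.96, limma, adjusted p = 0.0393), and it was past the threshold in 2 of the 6 fits that left out a library. SEC61A1 and SEC61B, the pore and a small subunit of the translocon, were at 452 ± 26.9 TPM and 284 ± 33.3 TPM in the control group and at 511 ± 32.1 TPM and 368 ± 38.0 TPM in the rutaecarpine group (SD, n = 3; adjusted p = 0.245 and 0.104). SEC23B and SEC24D, of the inner COPII coat that buds vesicles from the ER, had log2 fold changes of 0.52 and 0.49 (adjusted p = 0.0867 and 0.12). UFM1, a ubiquitin-like modifier of ribosomes at the ER, had 77.58, 80.63 and 48.09 TPM against 84.69, 87.26 and 97.46 TPM (log2 fold change 0.41, adjusted p = 0.257), and its log2 fold change was 0.18 without control replicate 3 (adjusted p = 0.186). In these 5 genes that did not pass, every rutaecarpine library was above every control library, which held for 19.3% of all genes tested. The gap was narrow in SEC61B (highest control 321.67 TPM, lowest rutaecarpine library 324.11 TPM) and in SEC61A1 (473.49 and 477.81 TPM).

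Summed TPM showed how much of the measured RNA the 44 genes took. Their share of the library total was 0.784%, 0.794% and 0.756% in the control group and 0.964%, 1.05% and 1.06% in the rutaecarpine group, so the groups did not overlap and the mean share was 1.32 times higher. The HSP70 and HSP90 system went from 0.104 ± 0.0186% to 0.230 ± 0.0226% (SD, n = 3), or 2.22 times, and the other luminal stress proteins from 0.0163 ± 0.0021% to 0.0384 ± 0.00617%, or 2.36 times. ERAD genes took 1.38 times as much. The disulfide isomerases had shares of 0.246 ± 0.00779% and 0.245 ± 0.00514%, a ratio of 0.998, and the prolyl isomerases had a ratio of 0.946. HSPA5 alone made up 3.53%, 3.70% and 3.05% of the summed TPM of the 44 genes in the control group and 8.98%, 10.9% and 10.7% in the rutaecarpine group.

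**Figure D3:**
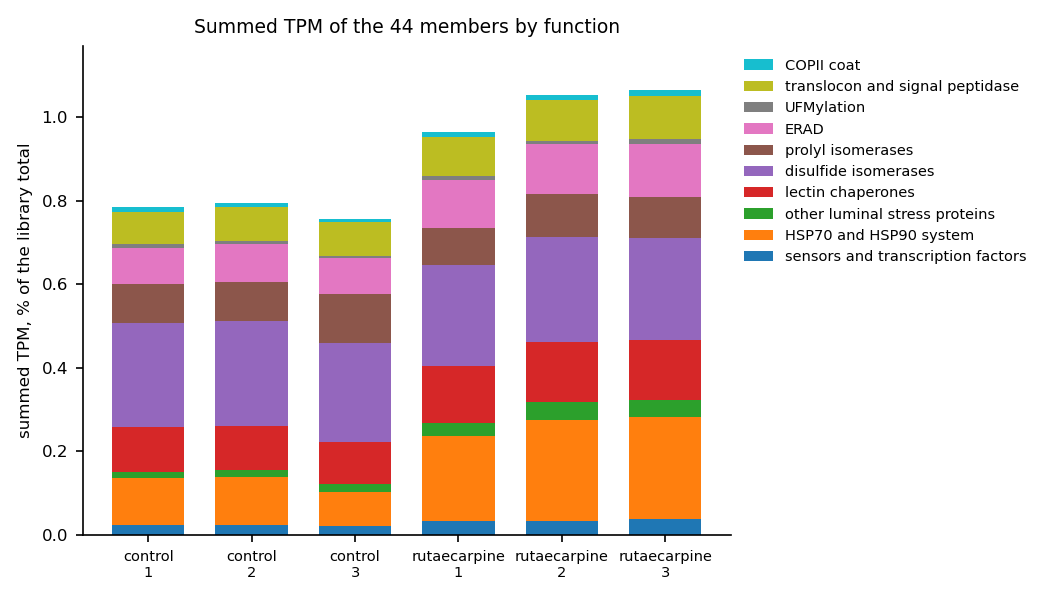
Summed TPM of the 44 genes in each library as percent of the library total, stacked by function, with control replicates 1 to 3 on the left and rutaecarpine replicates 1 to 3 on the right. The total rises from 0.756 to 0.794% to 0.964 to 1.06%, the HSP70 and HSP90 layer widens from 0.104% to 0.230% on average, and the layer of disulfide isomerases stays near 0.246%.

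In the control group the mean levels of these genes ranged from 2.42 TPM (DERL3) to 1418 TPM (P4HB). Their median was 55.9 TPM, against 13.4 TPM for all genes tested. The next highest were PPIB (973 TPM), CALR (798 TPM) and HSP90B1 (578 TPM), and 14 genes had a control mean of at least 100 TPM. HSPA5 was at 265 ± 31.8 TPM in the control group and at 1044 ± 161 TPM (SD, n = 3) in the rutaecarpine group, where it exceeded the mean levels of CALR (1022 ± 62.3 TPM) and PPIB (918 ± 73.3 TPM) by less than the spread of its own libraries.

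Control replicate 3 moved with transcript length. It was below both other controls for 27 of the 44 genes, in each of which it was also the lowest of the 6 libraries, and above both for 16. The same counts were not made over all genes tested, whose median log2(TPM + 1) was also lowest in this library (3.56). Its deviation from the mean of the other 2 controls on the log2(TPM + 1) scale was -1.62 in SEL1L, -1.14 in DNAJC10, -1.10 in EDEM3 and -0.87 in DNAJC3. It was 0.95 in the weakly expressed DERL3, 0.42 in SDF2L1 and 0.36 in MANF. Across the 44 genes this deviation and the length of the reference transcript had a Spearman rho of -0.83, and across 14267 genes tested it was -0.51. These are correlations across genes that share 1 library and are given as a description. Without control replicate 3, 25 of the 44 genes were higher at an adjusted p of at most 0.05 and the median log2 fold change was 0.35, while 8.2% of all genes were higher and 10.3% were lower and the median of all genes was -0.01. The 11 genes past the threshold without this library and not with all 6 were WFS1, HSP90B1, CRELD2, CANX, PDIA4, SEL1L, EDEM1, DERL2, ERLEC1, SELENOK and SEC61B.

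**Figure D4:**
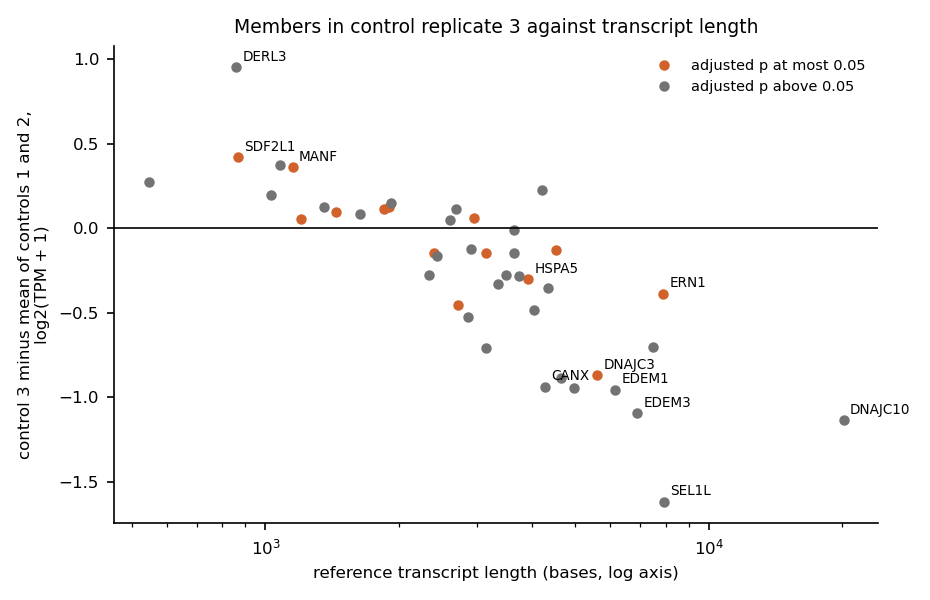
Deviation of control replicate 3 from the mean of control replicates 1 and 2 (log2(TPM + 1)) against reference transcript length (bases, log axis) for the 44 genes, with orange points for an adjusted p of at most 0.05. Points range from 0.95 in DERL3 (860 bases) to -1.62 in SEL1L (7925 bases).

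Of the 14 genes that rose, 8 were past the threshold in all 6 fits that left out a library and in all 8 other settings tried. These were HSPA5, HYOU1, DNAJB9, DNAJB11, MANF, HERPUD1, XBP1 and SYVN1. Values of SYVN1, DNAJB9, HYOU1 and DNAJB11 carry a further limit, since other annotated genes overlap them (FAU on the strand of SYVN1, PNPLA8 and THAP5 opposite DNAJB9) and the strand used in counting is not given in the sources used here.

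The fold changes were next set against the promoter letters shown at the start. Of the 10 genes with either element, 6 rose, 4 were DEGs and the median log2 fold change was 0.82. Of the 29 genes with a window and without these letters, 8 rose, 4 were DEGs and the median was 0.41. The 3 genes with the second element (HERPUD1, HYOU1 and SDF2L1) were all DEGs, with a median of 1.43, while the 7 with the first ranged from 0.00 in PDIA6 to 1.97 in HSPA5, with 3 that rose and a median of 0.58. DNAJB9, MANF, ERN1 and DNAJC3 were DEGs without either element in the window.

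**Figure D5:**
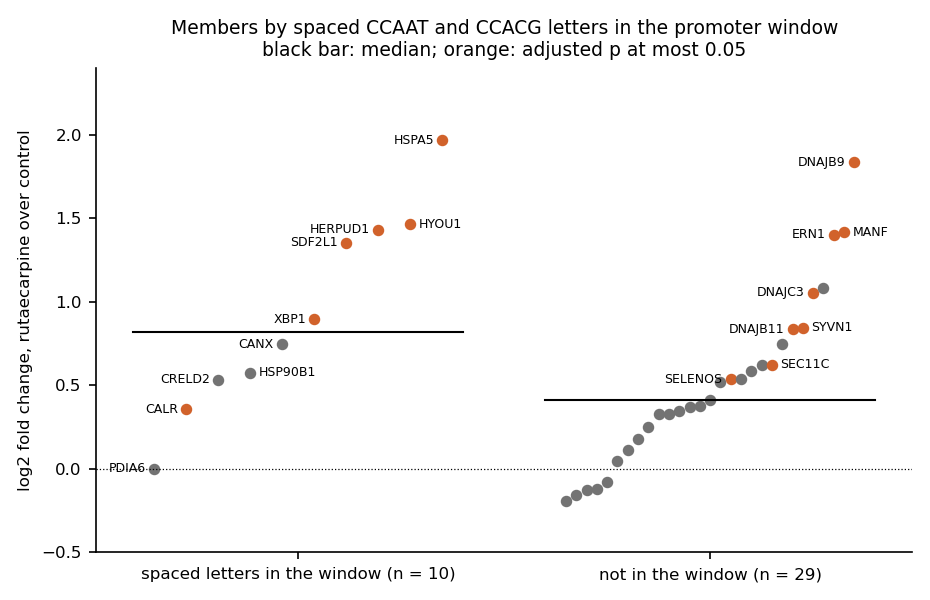
Log2 fold change of the 39 genes with a promoter window, split by whether CCAAT and CCACG at either spacing occur in it (10 genes) or not (29 genes), with orange points for an adjusted p of at most 0.05 and black bars for the medians. The medians are 0.82 and 0.41, and both columns reach above 1.8, with HSPA5 on the left and DNAJB9 on the right.

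Lists of other genes of the same pathway, 130 in all, gave the setting. Of the 126 tested, 19 rose, 6 fell and the median log2 fold change was 0.15. Over all genes tested, 4.6% rose and 4.68% fell, so the share that fell here was close to that of all genes. Most of the rises were in 1 list, the genes downstream of PERK and ATF4, in which 11 of 13 rose, 8 were DEGs and the median was 1.37. These RNA levels do not measure the activity of PERK, and its part in the rises was not tested. TRIB3, a pseudokinase induced by ATF4, had 17.33, 22.49 and 25.05 TPM in the control group and 79.21, 90.89 and 105.56 TPM in the rutaecarpine group (log2 fold change 2.04, limma, adjusted p = 0.000874). PPP1R15A (GADD34), which directs the phosphatase that reverses the PERK signal, had 44.87, 47.73 and 47.67 TPM against 142.92, 161.35 and 158.65 TPM (log2 fold change 1.70, limma, adjusted p = 0.000176). SESN2, an inhibitor of mTORC1 signalling, had a log2 fold change of 1.69 (limma, adjusted p = 0.000719). In each of them the lowest rutaecarpine library was more than double the highest control.

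The remaining lists held 1 DEG. Their counts stand beside the 4.6% of all genes tested that rose and the 4.68% that fell. FICD, the enzyme that adds AMP to HSPA5 and removes it, had 6.62, 7.23 and 4.69 TPM against 19.33, 20.26 and 24.19 TPM (log2 fold change 1.64, limma, adjusted p = 0.00279). Among the 7 other sensors and regulators tested it was the only gene that rose, and CREB3L1, a membrane-bound transcription factor, fell by 0.61 on the log2 scale (limma, adjusted p = 0.00925). In other ERAD machinery 2 of 20 genes rose (RNF185 and UBE2J2), and in other translocon, signal recognition particle and signal peptidase genes 5 of 22 rose and 0 fell, with a median log2 fold change of 0.30. No gene was past the threshold and higher among 14 other disulfide isomerases and oxidases (PRDX4 fell) or 16 other co-chaperones and prolyl isomerases (FKBP7 and FKBP10 fell). The same held for 13 calnexin cycle and glycan trimming genes (PRKCSH fell), 6 other UFMylation genes and 15 other COPII and KDEL receptor genes. The fall in the last list was KDELR3, a receptor that returns luminal proteins to the ER, with 120.38, 125.15 and 122.80 TPM in the control group and 68.64, 58.52 and 69.70 TPM in the rutaecarpine group (log2 fold change -0.90, limma, adjusted p = 0.00207). CREB3L1, RNF185, UBE2J2, PRDX4, FKBP7, FKBP10, PRKCSH and KDELR3 were named after their values were seen.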

How the data were processed

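RNA sequencing of U87 cells gave 6 libraries, grouped by the labels into 3 control and 3 rutaecarpine samples. The values the authors deposited are TPM, 1 column per library, and the submitters' processing notes name RSEM and the build GRCh38.p13. The aligner and annotation release are not given in the sources used here. All columns were matched to a sample (0 unmatched). TPM keep no read numbers, so depth is unknown and counting error cannot be given.

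A gene was kept where 3 or more libraries reached a TPM of 1, which left 14377 genes, and groups were compared on log2(TPM + 1) with limma 3.58.1 in R 4.3.3 (empirical Bayes with a mean-variance trend, two-sided), with Benjamini-Hochberg adjustment over all genes tested. The fit was also run on simulated data. Their noise was drawn for each gene separately, from the libraries other than control replicate 3. The simulation thus does not cover the deviation of that library. Fold changes on this scale understate those of weakly expressed genes, and RSEM divides reads shared by gene copies. An exact permutation test of 3 against 3 libraries cannot give a p below 0.1 and was not used. Transcript lengths and gene models came from GENCODE release 29 on GRCh38, and promoter windows from RefSeq. Protein sequences were not used here. Tables were made in Python 3.11.15 with pandas 2.3.3.

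The named genes were all 44 members, up to 3 DEGs per other pathway list by size of change, and CYP1B1. Members and lists were chosen with earlier results of these data known. Alternatives were centring, limma without the trend, 2 other filters on low TPM, a pseudocount of 0.1, a replicate block, library weights, leaving out each library and, chosen after seeing the data, removing trends with transcript length and GC content.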

Additional observations from a re-analysis of the deposited data

How the results depend on the processing

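The count of 14 members past the threshold rested on the settings more than the count of 8 DEGs, which was 6 to 8 under all alternatives. The number past was 9 with a replicate block, 29 with library weights (1 of them lower, OS9), 22 with length and GC trends removed (a setting chosen after seeing the data) and 11 to 15 with the other 5. Over all genes tested, 13.5% were higher and 14.1% lower with weights, and 9.74% and 10.9% with trends removed. Leaving out 1 library gave 9 (without rutaecarpine replicate 3) to 25 (without control replicate 3). The labels do not say whether equal replicate numbers pair the samples. Across genes, the deviations of same-numbered libraries from their group means correlated at 0.116, -0.266 and -0.215. The deviations within a group depend on each other, so these values cannot decide whether the samples were paired. The block also left 236 higher and 192 lower of all genes. The median log2 fold change was 0.37 (0.3687) with library weights, 0.37 (0.3726) with length and GC trends removed, and 0.35 to 0.53 with 1 library left out. The share of the transcriptome rose 1.30 to 1.36 times with 1 library left out. Signs turned in 6 members, none past the threshold. ATF6 was at -0.0397 with weights and -0.0928 with trends removed, and ranged from -0.118 to 0.246 with a library left out. MBTPS1 was at -0.0453 with centred libraries, -0.0303 with weights and -0.0485 with trends removed, and ranged from -0.0695 to 0.112. PDIA6 was at -0.0918, -0.108 and -0.0591 in the same order, and ranged from -0.0903 to 0.0508. FKBP14 ranged from -0.0211 to 0.485, PPIB from -0.151 to 0.0482 and DERL3 from -0.528 to 0.004. Of 616 values of single members under alternatives, 534 kept direction and side of the threshold, 30 lost the call, 36 gained one and 16 changed sign. Leaving out a library also left fewer samples, and the cause of these changes was not tested. ERN1 was lost only with the block (adjusted p = 0.0572).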

Other observations

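The paired letters of the promoter search (CCAAT and CCACG separated by 9 bases, or ATTGG and CCACG separated by 1) were found in 44 of the 27305 genes in the RefSeq promoter table, of which 10 were members of the folding and ERAD set. Of the 20 other genes that carried them and were tested, 2 rose after rutaecarpine and 1 fell, and the median log2 fold change was 0.11. Of the 10294 tested genes with neither the letters nor membership, 4.62% rose. The 2 that rose were FICD and SERP1. SERP1 (RAMP4), a small protein of the translocon that is made under ER stress, was at 66.7 ± 9.16 TPM without and 108 ± 11.6 TPM with rutaecarpine (SD, n = 3; log2 fold change 0.69, limma, adjusted p = 0.0221). The gene that fell was SYNPO, an actin-associated protein, from 127 ± 22.2 TPM to 72.3 ± 12.5 TPM (SD, n = 3; log2 fold change -0.80, limma, adjusted p = 0.0303). SERP1 and SYNPO were named after their values were seen.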
